A study of Homo sapiens with 10 samples.

Results

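Cells of the prostate cancer line C4-2 that expressed a nuclear form of the signalling adaptor ARRB1 (nucARRB1) were compared with C4-2 cells that expressed the wild-type form (wtARRB1). Both groups were chosen by their sample titles, and with 2 arrays each they made up 4 of the 10 arrays of the series. The nucARRB1 cells carried AcGFP-tagged ARRB1 with added nuclear localisation signals, and the wtARRB1 cells carried the same AcGFP-tagged ARRB1 without those signals. The other arrays, 3 of C4-2 cells with the GFP empty vector (GFP) and 3 of unmodified parental C4-2 cells (parental), entered the fit to estimate the spread between arrays and set the range of the controls. The 3 lines that carried a plasmid, nucARRB1, wtARRB1 and GFP, were selected and kept in G418, so that both ARRB1 lines shared the selection, the fluorescent tag and the ARRB1 sequence. The sources used here do not say whether the arrays of a group came from separate cultures or from separate clones, and p-values therefore measure only the spread between these arrays, which may be technical.

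ARRB1, or beta-arrestin 1, is best known for binding activated G protein-coupled receptors at the cell membrane, where it ends their coupling to G proteins and brings them to clathrin-coated pits. It also enters the nucleus, where it has been described as a partner of transcription factors and of histone acetyltransferases. Wild-type ARRB1 is found in both the cytoplasm and the nucleus, and added localisation signals move it to the nucleus. If both lines expressed it equally and were otherwise alike, their comparison would ask which transcripts go with its place rather than its overexpression. Neither condition was tested here, so the level of expression and differences between cultures or clones cannot be told apart from place. C4-2 is an androgen-independent, tumour-forming derivative of the prostate cancer line LNCaP.

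All values were quantile-normalised log2 intensities, with a median of 6.31 or 6.32 in every array, and all differences were nucARRB1 minus wtARRB1. On this scale a difference of 1 is a 2-fold change. The 48801 probes gave 18664 named genes, each read by its brightest probe. The listed markers of luminal prostate epithelium differed in level in the 4 ARRB1 arrays. EPCAM, an epithelial adhesion molecule, was high, at 12.07 and 11.95 in nucARRB1 and 12.01 and 11.95 in wtARRB1. So was FOXA1, a luminal transcription factor, at 12.66 and 12.67 in nucARRB1 and 12.83 and 12.67 in wtARRB1. KLK3, which encodes prostate-specific antigen, stood close to the array median at 6.42 and 6.15 in nucARRB1 and 6.77 and 7.37 in wtARRB1. The mean level of the 10 measured luminal markers was 10.21 and 9.98 in nucARRB1 and 10.27 and 10.18 in wtARRB1, whereas the fibroblast, endothelial and blood cell lists averaged between 6.37 and 6.54 in the same 4 arrays, near the array median.

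The arrays of one group did not lie equally close together. Over the 18664 genes, 219 (1.17%) differed at least 2-fold between nucARRB1 replicate 1 and nucARRB1 replicate 2, against 71 (0.38%) between both wtARRB1 arrays, 2 to 16 between GFP arrays and 0 to 44 between parental arrays. nucARRB1 replicate 2 differed at least 2-fold from wtARRB1 replicate 1 at 33 genes and from wtARRB1 replicate 2 at 85 genes, so that it lay nearer to both wtARRB1 arrays than to its own partner. nucARRB1 replicate 1 differed from them at 230 and 357 genes. Values are therefore given for each array.

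The targeted gene was read first. The brightest of 4 ARRB1 probes gave 8.30 and 7.71 in nucARRB1, 7.72 and 7.65 in wtARRB1 and 8.13 to 8.62 in the 6 control arrays. Neither ARRB1 line stood above all controls, and the difference between them was 0.32 (95% confidence interval -0.06 to 0.71, adjusted p = 0.78). The other 3 probes lay between 6.12 and 7.20 on average in each ARRB1 group and differed by 0.04 to 0.11. Since the constructs held a synthetic ARRB1 sequence that the probes may not match, the arrays gave no check of the labels. ARRDC3, an arrestin-domain protein that takes part in receptor degradation, gave 7.99 and 7.26 in nucARRB1 and 6.92 and 6.97 in wtARRB1 (difference 0.69, adjusted p = 0.275).

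Few genes separated the 2 lines. At the 1% false discovery rate of the study's methods, 12 of 18664 genes were called (0.0643%), of which 9 rose (0.0482%) and 3 fell (0.0161%) in nucARRB1, and at 5% there were 34 (0.182%), 23 higher (0.123%) and 11 lower (0.0589%). At an unadjusted p under 0.05 there were 1880 genes (10.1%), 920 higher and 960 lower. Over all 48801 probes, 24 were called at 1% (0.0492%), 14 higher (0.0287%) and 10 lower (0.0205%), and 63 at 5% (0.129%), 39 higher (0.0799%) and 24 lower (0.0492%). In size the differences were small as well, with 22 genes at least 2-fold higher, 50 at least 2-fold lower and 18592 between these limits. The median absolute difference was 0.112, against a median standard error of 0.138 and a median half-width of the 95% confidence interval of 0.293, so that most differences were within the error of 2 arrays a group. Both nucARRB1 arrays lay above both wtARRB1 arrays at 15.5% of genes and below them at 16.7%. The calls at 1% depended on the controls and on the scaling. Only CTAG2 passed when the 4 ARRB1 arrays were fitted alone, and CTAG2, CTAG1A and LOC100129434 passed when the arrays were centred on a common median in place of quantile normalisation. The same 3 genes passed whichever of the 10 arrays was left out. The other 9 did not pass without wtARRB1 replicate 2 (adjusted p = 0.0189 to 0.0849), and 6 of them, HERC5, MS4A13, TNFRSF19, VCX2, VCY and VIM, did not without nucARRB1 replicate 1 (0.0178 to 0.0366), which left 6 genes (0.0321%), 3 in each direction (0.0161% each). Between 2 and 7 of the 12 did not pass without wtARRB1 replicate 1, GFP replicate 2 or 3 or parental replicate 2 or 3 (0.0106 to 0.0241). Without nucARRB1 replicate 2 the count was 244 genes (1.31%), 112 higher (0.6%) and 132 lower (0.707%), with all 12 among them.

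**Figure D1:**
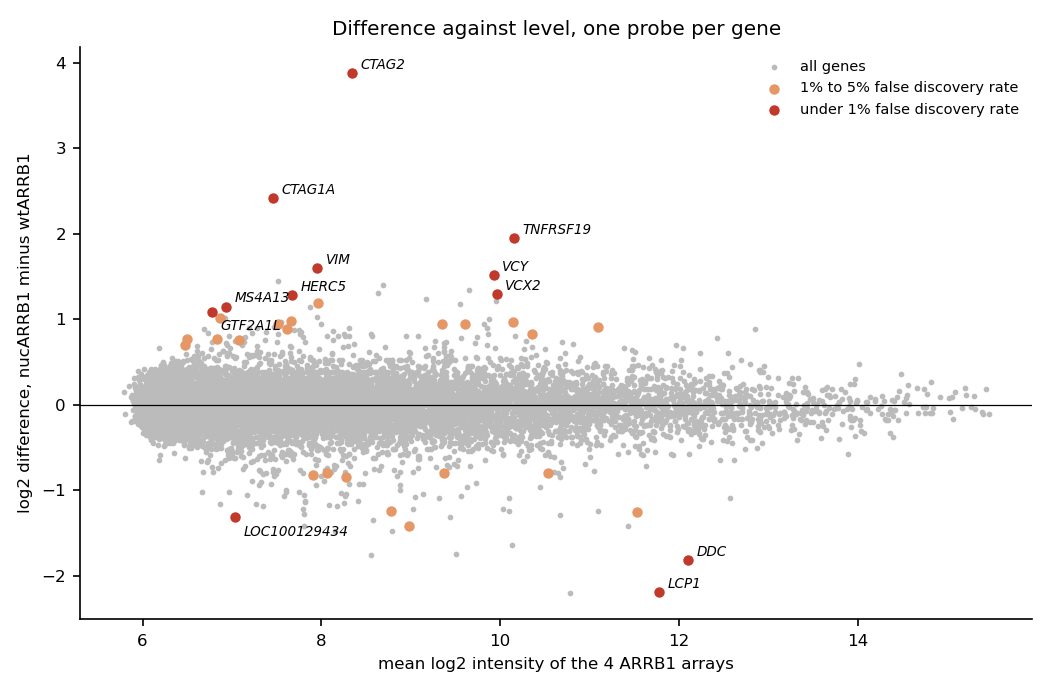
Each point is 1 gene, with the mean log2 intensity of the 4 ARRB1 arrays on the x axis and the log2 difference, nucARRB1 minus wtARRB1, on the y axis; red points passed the 1% false discovery rate and orange points 5%. The 9 genes that rose and 3 that fell range in level from GTF2A1L (means of 7.32 in nucARRB1 and 6.23 in wtARRB1) to DDC (11.2 and 13.01). CTAG2 is the highest at 3.88, and the lowest point, CAMK2N1 at -2.20, was not called.

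The highest rise was in cancer-testis antigens, proteins that are normally made in germ cells and that tumours often express. CTAG2, also known as LAGE-1, gave 9.92 and 10.64 in nucARRB1, 6.25 and 6.56 in wtARRB1, 7.27, 8.37 and 7.55 in GFP and 6.82, 6.88 and 6.90 in parental cells. Both nucARRB1 arrays stood above every other array and both wtARRB1 arrays below every control. The difference was 3.88 (SE 0.269, 14.7-fold, adjusted p = 6.9e-06), and the second CTAG2 probe, which was dimmer, differed by 0.95 (adjusted p = 0.0194). CTAG1A, which encodes NY-ESO-1, gave 8.41 and 8.93 in nucARRB1 and 6.51 and 5.99 in wtARRB1, with the controls between 5.97 and 6.98. It rose by 2.42 (SE 0.222, 5.34-fold, adjusted p = 0.000109), while its second probe differed by 0.64 (adjusted p = 0.224). The wtARRB1 arrays were close to the array median for both genes, so these folds run from levels near the floor of the array, whereas CTAG2 in the GFP arrays was above it. CTAG1A has a near-identical copy, CTAG1B, whose probe (looked up after the call) gave 6.98 and 6.32 in nucARRB1 and 6.22 and 6.17 in wtARRB1 (adjusted p = 0.5), and CTAG2 is a close relative, so that the split of the signal among the 3 genes is uncertain.

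Most other cancer-testis antigens were not called. Of 32 measured members, 2 were called at 1% and 3 at 5%, all higher (against 0.0482% of all genes higher at 1% and 0.123% at 5%), and the median difference was -0.01, against 0 over all genes. The third was SSX2, a repressor of transcription with near-identical copies, at 6.70 and 6.95 in nucARRB1 and 6.14 and 6.10 in wtARRB1 (difference 0.70, adjusted p = 0.0276). These levels are near the array median, and the other SSX2 probes differed by 0.17, 0.51 and 0.06, with no call. Members well above the array median were not called either, with 2 examples picked after their values were seen. PAGE1 gave 12.99 and 12.96 in nucARRB1 and 12.69 and 12.99 in wtARRB1, and MAGEA1 gave 10.97 and 10.57 in nucARRB1 and 10.95 and 11.23 in wtARRB1 (difference -0.32, adjusted p = 0.776).

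VCX and VCY genes, a family of small basic proteins of male germ cells on the X and Y chromosomes, rose as well. VCX2 gave 10.74 and 10.48 in nucARRB1, 9.65 and 8.96 in wtARRB1 and 9.01 to 9.45 in the controls, a rise of 1.30 (SE 0.173, adjusted p = 0.00374). Of its 5 other probes, 2 were also higher by 1.27 and 1.36 (adjusted p = 0.0331 and 0.00289), and 3 lay near the array median and were not called. VCY rose by 1.52 (SE 0.206, adjusted p = 0.00428) and its second probe by 1.00 (adjusted p = 0.0338). A probe of VCX3B gave 10.73 and 10.12 in nucARRB1 and 9.54 and 9.04 in wtARRB1 (difference 1.13, adjusted p = 0.028). It was picked out after its values were seen and is not the brightest VCX3B probe. The brightest one was not called at 5%, so VCX3B is not among the called genes. The members are so alike that their probes can share targets, and they cannot be counted as separate genes. The likeness extends upstream of the genes. The 150 bases before the RefSeq start of VCX2 (GRCh38.p14, chrX:8171268-8171417, minus strand) and of VCX3B (chrX:8464680-8464829, plus strand) are shown 5′ to 3′. They were picked because this VCX3B probe rose with probes of VCX2. Capitals mark the 87 bases next to the start that are the same in both.
VCX2: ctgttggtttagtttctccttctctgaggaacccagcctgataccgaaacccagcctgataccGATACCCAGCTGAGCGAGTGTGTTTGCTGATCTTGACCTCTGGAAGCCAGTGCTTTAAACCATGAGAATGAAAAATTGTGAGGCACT
VCX3B: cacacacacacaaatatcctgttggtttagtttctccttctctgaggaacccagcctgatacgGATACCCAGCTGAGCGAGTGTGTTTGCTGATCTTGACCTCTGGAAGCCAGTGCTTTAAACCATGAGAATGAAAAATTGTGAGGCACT

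Other rises were in genes of different kinds. TNFRSF19, a receptor of the tumour necrosis factor superfamily and a target of Wnt signalling, gave 11.52 and 10.74 in nucARRB1, 9.21 and 9.15 in wtARRB1 and 9.56 to 10.46 in the controls. It rose by 1.95 (SE 0.249, 3.85-fold, adjusted p = 0.00289), and the controls lay between the 2 ARRB1 lines. Its other 3 probes lay near the array median and differed by -0.07 to 0.24, with no call. VIM, the intermediate filament protein vimentin that marks mesenchymal cells, gave 9.0 and 8.51 in nucARRB1 and 7.48 and 6.83 in wtARRB1, a rise of 1.60 (SE 0.211, 3.04-fold, adjusted p = 0.0036), with a second probe higher by 1.15 (adjusted p = 0.0326). VIM was the 1 called gene of 13 mesenchymal markers (against 0.0482% of all genes higher), whose median difference was 0.01. HERC5, the ligase that attaches the interferon-induced protein ISG15, gave 8.64 and 7.99 in nucARRB1 and 7.20 and 6.87 in wtARRB1 (rise of 1.28, SE 0.177, adjusted p = 0.00441). It was the 1 called gene of 25 of the interferon response (against 0.0482% of all genes higher), of which 7 (28%, against 15.5% of all genes) lay above wtARRB1 in both nucARRB1 arrays and 5 (20%, against 16.7%) below, with a list median of 0.04. GTF2A1L, a germ-cell form of the general transcription factor TFIIA, gave 7.16 and 7.48 in nucARRB1 and 6.37 and 6.10 in wtARRB1 (rise of 1.09, adjusted p = 0.00374), and MS4A13, a membrane protein, gave 7.69 and 7.33 in nucARRB1 and 6.28 and 6.44 in wtARRB1 (rise of 1.15, adjusted p = 0.0036). On the brightest probes of all 5 genes both nucARRB1 arrays stood above both wtARRB1 arrays and above all 6 controls. The second VIM probe overlapped the controls in nucARRB1. Second probes of GTF2A1L (0.16) and MS4A13 (0.05) lay near the array median and were not called.

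**Figure D2:**
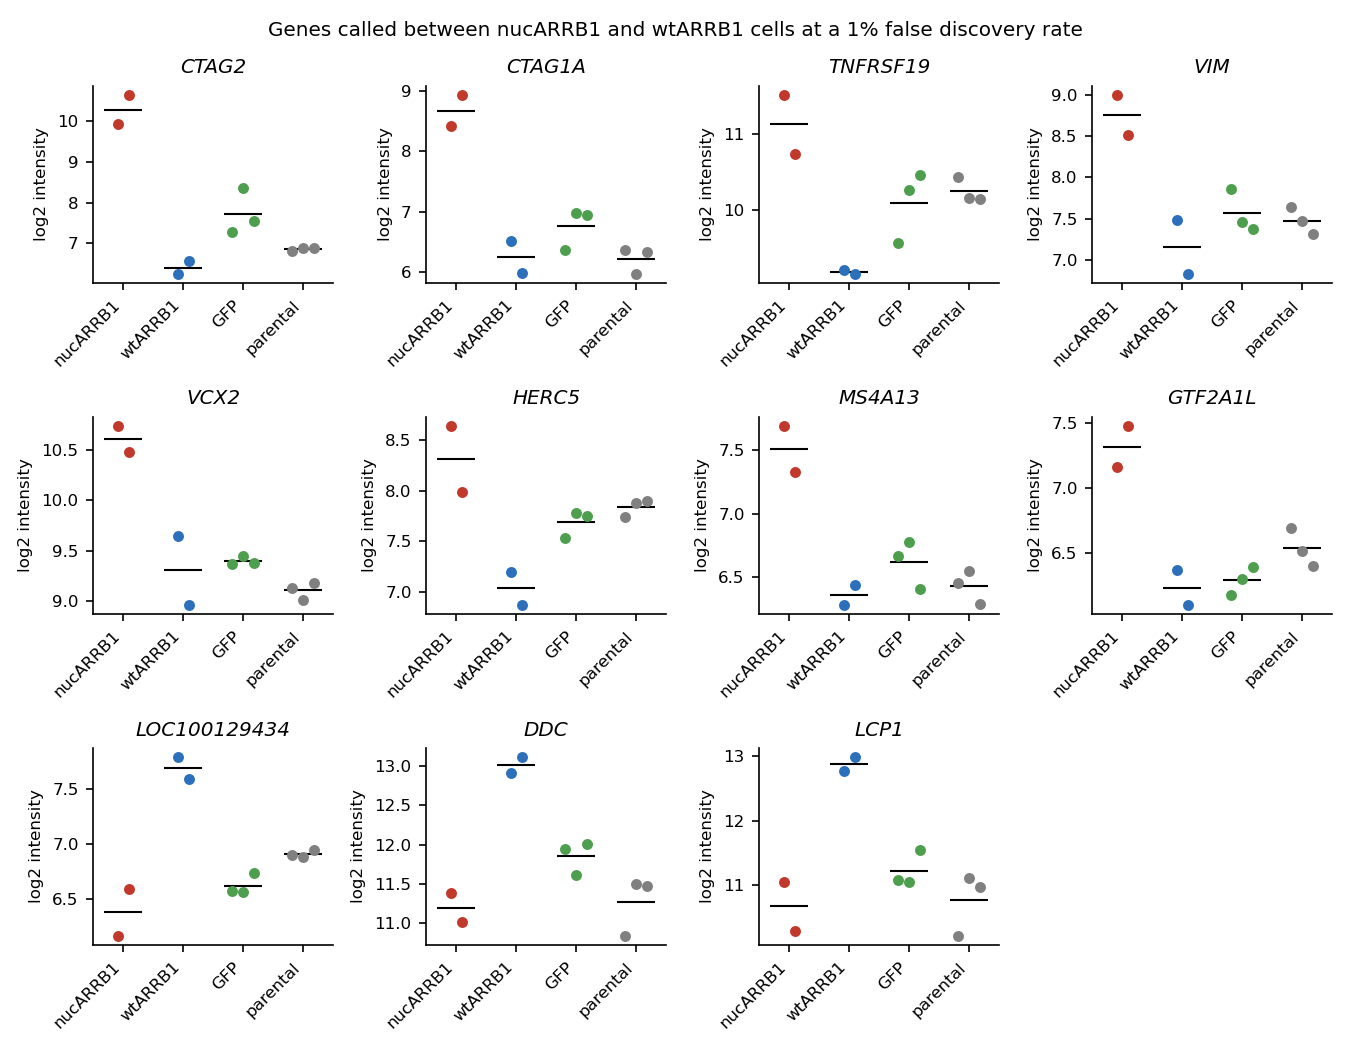
Log2 intensity of 11 of the 12 genes called at 1% in each array, by group, with a bar at the group mean; VCY is left out. In the top 8 panels both nucARRB1 arrays lie above the 2 wtARRB1 and all 6 control arrays, and in the 3 panels of genes that fell (LOC100129434, DDC and LCP1) both wtARRB1 arrays lie above all others.

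At 5% the genes that were higher in nucARRB1 included HTRA1, a secreted serine protease, at 8.60 and 8.52 in nucARRB1 and 7.74 and 7.0 in wtARRB1 (difference 1.19, adjusted p = 0.0326). DCBLD2, a membrane receptor-like protein, gave 7.55 and 7.21 in nucARRB1 and 6.37 and 6.35 in wtARRB1 (1.02, adjusted p = 0.0136), where the controls, at 6.92 to 7.59, overlapped nucARRB1. NKX3-2, a homeobox transcription factor, gave 8.29 and 8.02 in nucARRB1 and 7.38 and 6.97 in wtARRB1 (0.98, adjusted p = 0.0235). Further genes of this set, with 1 called member in their lists (against 0.123% of all genes higher), were ATF3, a stress-induced transcription factor, and CXCL12, a chemokine. ATF3 gave 10.92 and 10.63 in nucARRB1 and 9.90 and 9.99 in wtARRB1 (0.83, adjusted p = 0.0235). CXCL12 gave 7.63 and 7.28 in nucARRB1 and 6.72 and 6.67 in wtARRB1 (0.76, adjusted p = 0.0354). Both ARRB1 lines stood above the controls for these 2 genes, which reached 8.87 for ATF3 and 6.57 for CXCL12. A second ATF3 probe, near the array median, differed by -0.06. The other CXCL12 probes differed by 0.25 and 0.12, and a second DCBLD2 probe by 0.58, with no call.

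Among the 3 genes that fell at 1%, wtARRB1 rather than nucARRB1 stood apart from the controls. LCP1, the actin-bundling protein plastin-2, gave 11.06 and 10.30 in nucARRB1, 12.77 and 12.98 in wtARRB1 and 10.22 to 11.55 in the controls. It fell by 2.19 (SE 0.264, adjusted p = 0.0017), and wtARRB1 was 4.58-fold above nucARRB1. DDC, the decarboxylase that makes dopamine and serotonin and a marker of neuroendocrine cells, gave 11.38 and 11.02 in nucARRB1, 12.91 and 13.11 in wtARRB1 and 10.84 to 12.01 in the controls, and fell by 1.81 (SE 0.199, adjusted p = 0.000595). DDC was the 1 called gene of 15 neuroendocrine markers (against 0.0161% of all genes lower), with a list median of 0.13. LOC100129434, a locus of unknown role, gave 6.16 and 6.59 in nucARRB1 and 7.79 and 7.59 in wtARRB1, and fell by 1.31 (SE 0.141, adjusted p = 0.000455). The nucARRB1 arrays of all 3 genes overlapped the controls, and both wtARRB1 arrays were above all of them.

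At 5% the lower genes were RAB25, a small GTPase of recycling endosomes, at 10.12 and 10.13 in nucARRB1 and 11.01 and 10.84 in wtARRB1 (difference -0.80, adjusted p = 0.0126), and LFNG, a glycosyltransferase that modifies Notch receptors, at 7.50 and 7.49 in nucARRB1 and 8.25 and 8.38 in wtARRB1 (-0.82, adjusted p = 0.0136). PPP1R16A, a regulatory subunit of protein phosphatase 1, gave 7.85 and 7.86 in nucARRB1 and 8.62 and 8.78 in wtARRB1 (-0.84, adjusted p = 0.0136). In these 3 genes both nucARRB1 arrays lay below all controls, and for LFNG both wtARRB1 arrays did too. The other LFNG probes, near the array median, differed by -0.07 and 0.08. NCOA1, a coactivator of nuclear receptors, gave 8.86 and 9.08 in nucARRB1 and 9.84 and 9.69 in wtARRB1 (-0.80, adjusted p = 0.0355). Its other probes, near the array median, differed by -0.22 and -0.10. FKBP11, a prolyl isomerase of the secretory pathway, gave 10.46 and 11.37 in nucARRB1 and 12.21 and 12.11 in wtARRB1 (-1.25, adjusted p = 0.0355), and MT1F, a metallothionein, gave 8.64 and 7.92 in nucARRB1 and 9.52 and 9.87 in wtARRB1 (-1.41, adjusted p = 0.0471). Both nucARRB1 arrays also lay below all controls for NCOA1 and MT1F, and for NCOA1 both wtARRB1 arrays lay above them. TMEM140, a membrane protein, gave 7.87 and 8.46 in nucARRB1 and 9.66 and 9.15 in wtARRB1 (-1.24, adjusted p = 0.0314). Both lines lay above all controls, which reached 7.74. HLA-DMA, which loads peptides onto class II molecules, gave 7.48 and 7.86 in nucARRB1 and 8.30 and 8.63 in wtARRB1 (-0.80, adjusted p = 0.0424). For FKBP11 and HLA-DMA both wtARRB1 arrays lay above all controls, and nucARRB1 was neither above nor below all of them. TMEM140 and HLA-DMA completed the named falls at 5%. CAMK2N1, an inhibitor of the kinase CaMKII, had the largest negative difference of all genes at -2.20, but gave 8.41 and 10.95 in nucARRB1 and 12.24 and 11.52 in wtARRB1 and was not called (adjusted p = 0.162).

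Set against the controls, the calls at 1% took 2 forms. All 14 probes that rose had both nucARRB1 arrays above the range of the 6 control arrays, with wtARRB1 at least partly inside that range at 10 probes and below it at 4. Of the 10 probes that fell, both wtARRB1 arrays were above the controls at 9, and nucARRB1 was at least partly inside the range at 6 and below it at 4. These ranges come from the same fit that made the calls and are descriptions. Of the 24 probes, 11 had no gene name in the annotation used here. Those with the smallest adjusted p in each direction were ILMN_1652196 at 8.16 and 8.66 in nucARRB1 and 6.24 and 6.22 in wtARRB1 (2.18, adjusted p = 7.98e-06), and ILMN_1669982 at 6.44 and 7.14 in nucARRB1 and 9.27 and 9.06 in wtARRB1 (-2.37, adjusted p = 0.000141).

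Mitosis genes showed how far the 2 nucARRB1 arrays differed. The mean level of 91 genes of mitosis was 7.38 in nucARRB1 replicate 1 and 8.36 in nucARRB1 replicate 2, against 8.21 and 8.73 in wtARRB1, 9.32 to 9.43 in GFP and 9.07 to 9.15 in parental cells. Replicate 2 of nucARRB1 therefore lay between both wtARRB1 arrays, and replicate 1 alone lay below them. None of the 91 was called by limma at 1% or 5%, and 50 were lower at an unadjusted p under 0.05 (against 960 of all 18664 genes). The median difference was -0.57 (-1.05 for replicate 1 and -0.08 for replicate 2 against the wtARRB1 mean), and 82 of 91 genes were lower in replicate 1 than in replicate 2. Both nucARRB1 arrays lay below both wtARRB1 arrays at 25 genes (27.5%, against 16.7% of all genes). The wtARRB1 arrays were not alike either, with a median of -0.57 for replicate 1 minus replicate 2. Without nucARRB1 replicate 2, so that 1 nucARRB1 array was assumed to vary as the other groups did, 39 of the 91 were called lower (42.9%, against 0.707% of all genes), and without replicate 1 none was.

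Single genes followed the same pattern. CCNB1, cyclin B1, gave 6.28 and 7.23 in nucARRB1 and 7.63 and 8.24 in wtARRB1 (difference -1.18, adjusted p = 0.072). HMMR, a spindle protein, gave 7.56 and 9.73 in nucARRB1 and 9.96 and 10.80 in wtARRB1 (-1.74, adjusted p = 0.245). BUB1, a checkpoint kinase, gave 6.62 and 7.74 in nucARRB1 and 8.09 and 8.71 in wtARRB1 (-1.22, adjusted p = 0.147). In these 3 genes both nucARRB1 arrays were below both wtARRB1 arrays, but replicate 1 carried most of the difference. ASPM, a spindle-pole protein, gave 6.60 and 7.36 in nucARRB1 and 7.76 and 7.81 in wtARRB1 (-0.80, adjusted p = 0.123), and NCAPG, a condensin subunit, gave 6.55 and 7.98 in nucARRB1 and 8.0 and 8.76 in wtARRB1 (-1.12, adjusted p = 0.277). CENPE, a kinetochore motor, gave 6.30 and 7.79 in nucARRB1 and 8.02 and 8.21 in wtARRB1 (-1.07, adjusted p = 0.259). By contrast CDC20, an activator of the anaphase-promoting complex, gave 8.62 and 11.30 in nucARRB1 and 10.73 and 11.12 in wtARRB1, so that the 2 nucARRB1 arrays lay on either side of wtARRB1. PTTG1, or securin, had the largest negative difference between the nucARRB1 arrays (-2.85), at 9.30 and 12.15, against 11.77 and 12.50 in wtARRB1.

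**Figure D3:**
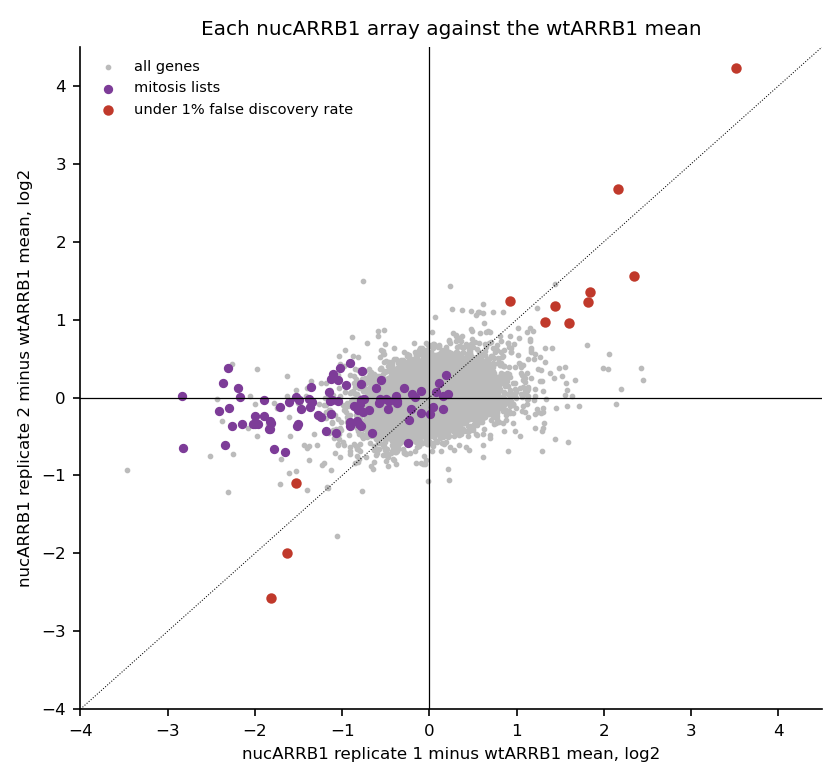
Each point is 1 gene, with the log2 difference from the wtARRB1 mean for nucARRB1 replicate 1 on the x axis and for nucARRB1 replicate 2 on the y axis (both share the wtARRB1 mean); the dotted line marks equal differences. Genes called at 1% (red) lie along the dotted line, whereas the 91 mitosis genes (purple) spread along the x axis, with medians of -1.05 for replicate 1 and -0.08 for replicate 2.

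Promoters of many mitosis genes hold the CCAAT box, bound by the factor NF-Y, and the cell cycle homology region, whose common form is TTTGAA and which the MuvB complex contacts. Both were searched on both strands in the 250 bases before the RefSeq start as CCAAT and as TTTGAA, with overlapping matches counted. Of 78 mitosis genes with a promoter in the table, 52 (66.7%) held a CCAAT box and 34 (43.6%) a TTTGAA, against 34.8% and 11% of 14782 measured genes with a promoter and 32% and 13.3% of all 35116 promoters. Both elements occurred together in 28 of 78 (35.9%), against 4.29% of the measured genes. This describes letters and not binding. The 3 genes shown are those named above with both elements and 2 or more CCAAT boxes, with the elements in capitals. HMMR (GRCh38.p14, chr5:163460382-163460631, plus strand) has 5 CCAAT and 2 TTTGAA matches, CDC20 (chr1:43358731-43358980, plus strand) 2 of each, and ASPM (chr1:197146670-197146919, minus strand) 4 and 1. In HMMR a pair of CCAAT matches overlaps on opposite strands and both TTTGAA matches adjoin.
HMMR: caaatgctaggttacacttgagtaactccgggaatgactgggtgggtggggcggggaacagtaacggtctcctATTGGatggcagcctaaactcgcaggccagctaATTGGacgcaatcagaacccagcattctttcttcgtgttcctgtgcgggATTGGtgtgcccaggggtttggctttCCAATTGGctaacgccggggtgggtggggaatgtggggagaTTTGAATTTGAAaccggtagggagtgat
CDC20: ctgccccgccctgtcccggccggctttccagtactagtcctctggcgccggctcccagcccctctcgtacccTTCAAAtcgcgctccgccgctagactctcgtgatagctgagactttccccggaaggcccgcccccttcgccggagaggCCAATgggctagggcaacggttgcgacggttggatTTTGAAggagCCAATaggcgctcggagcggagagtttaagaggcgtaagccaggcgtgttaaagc
ASPM: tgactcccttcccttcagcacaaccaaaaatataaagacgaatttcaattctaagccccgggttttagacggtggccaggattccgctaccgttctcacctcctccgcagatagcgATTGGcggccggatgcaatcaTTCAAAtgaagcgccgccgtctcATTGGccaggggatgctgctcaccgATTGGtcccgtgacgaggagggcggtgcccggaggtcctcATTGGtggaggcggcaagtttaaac

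The difference was smaller for genes of DNA replication. Their 49 measured members averaged 8.27 and 8.76 in nucARRB1 and 8.45 and 9.07 in wtARRB1, with a median difference of -0.21 (-0.45 and 0.00 for the 2 nucARRB1 arrays). None was called at 1% or 5%, and 7 were lower at an unadjusted p under 0.05 (against 960 of all 18664 genes). Both nucARRB1 arrays lay below both wtARRB1 arrays at 4 genes (8.16%), which was below the share of all genes. Without wtARRB1 replicate 2 the median turned to 0.09, and without wtARRB1 replicate 1 it was -0.50. TK1, thymidine kinase 1, gave 8.02 and 9.53 in nucARRB1 and 9.34 and 10.39 in wtARRB1 (-1.09, adjusted p = 0.412). RRM1, the large subunit of ribonucleotide reductase, gave 10.45 and 11 in nucARRB1 and 11.05 and 11.44 in wtARRB1 (-0.52, adjusted p = 0.478).

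The genes that were high in nucARRB1 replicate 1 belonged to other groups. Immediate early genes, which respond within minutes to signals, averaged 8.13 and 7.79 in nucARRB1 and 7.71 and 7.61 in wtARRB1. Their median difference was 0.19 and much alike in both arrays (0.16 for replicate 1 and 0.15 for replicate 2 against the wtARRB1 mean). Of these genes, 8 of 19 (42.1%, against 15.5% of all genes) lay above wtARRB1 in both arrays. ATF3 was the 1 of them called at 5% (against 0.123% of all genes higher). DUSP1, a MAP kinase phosphatase, gave 11.43 and 9.21 in nucARRB1 and 9.11 and 8.86 in wtARRB1 (1.34, adjusted p = 0.395), and had the largest positive difference between the nucARRB1 arrays (2.22). KLF6, a zinc finger factor, gave 10.42 and 8.37 in nucARRB1 and 8.15 and 7.84 in wtARRB1 (1.40, adjusted p = 0.277). MYC went the other way, at 9.48 and 11.01 in nucARRB1 and 11.06 and 11.12 in wtARRB1 (-0.84, adjusted p = 0.505). Replicative histones averaged 9.29 and 8.66 in nucARRB1 and 8.91 and 8.61 in wtARRB1, and genes of the androgen response 8.25 and 7.64 in nucARRB1 and 7.75 and 7.91 in wtARRB1. In each of these groups replicate 1 was the highest of the 4 arrays, and neither group had a call. ACP3, prostatic acid phosphatase and an androgen-regulated gene, gave 8.98 and 7.36 in nucARRB1 and 7.19 and 7.50 in wtARRB1, and TRPM8, an androgen-regulated ion channel, gave 10.02 and 8.04 in nucARRB1 and 8.22 and 8.93 in wtARRB1.

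**Figure D4:**
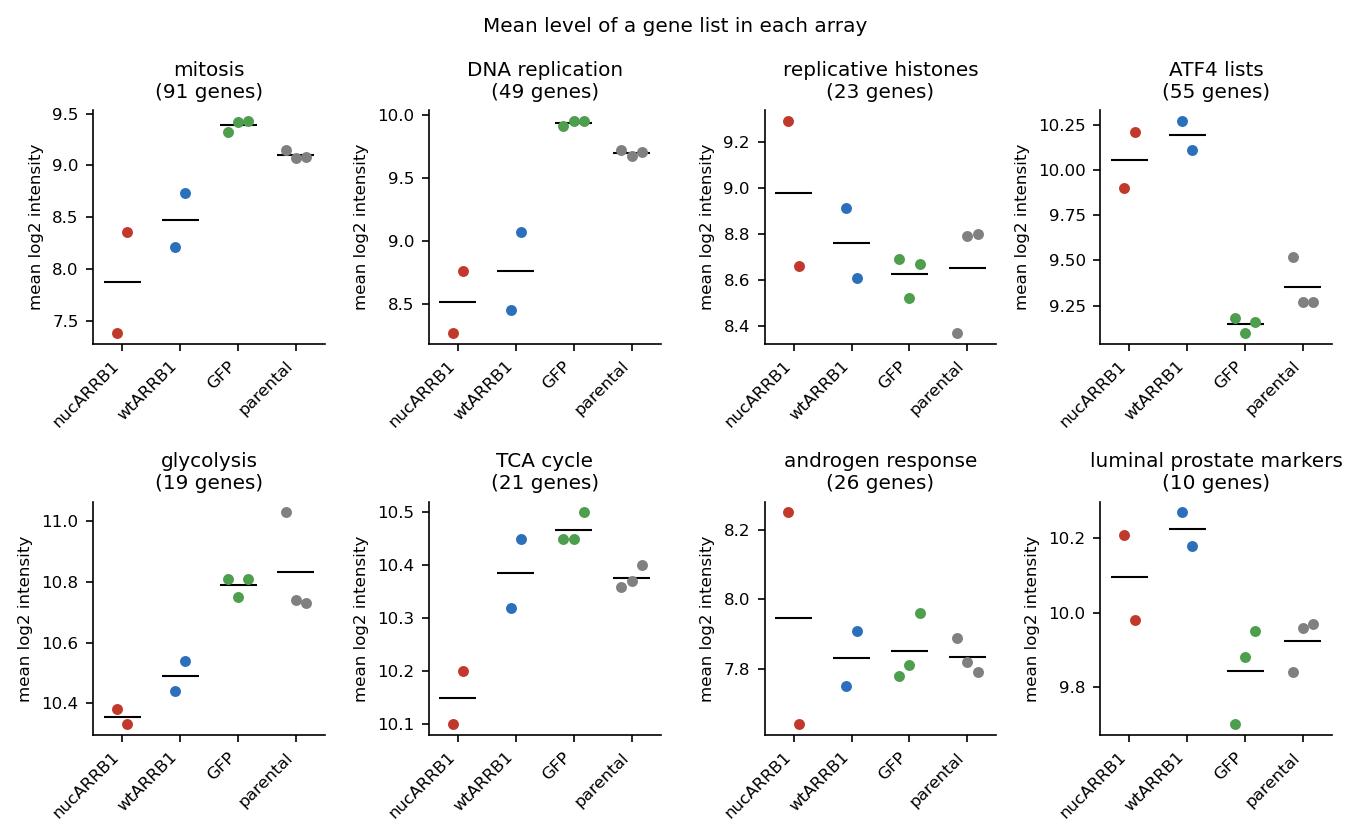
Mean log2 intensity of 8 gene lists in each array, by group, with a bar at the group mean. nucARRB1 replicate 1 is the lowest array for mitosis (7.38) and the highest for replicative histones (9.29) and the androgen response (8.25), whereas both nucARRB1 arrays lie below both wtARRB1 arrays for glycolysis and the TCA cycle.

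Genes of energy metabolism, the study's main theme, differed little, and none was called. Glycolysis genes (19 measured) averaged 10.38 and 10.33 in nucARRB1 and 10.44 and 10.54 in wtARRB1, with a median difference of -0.20, and genes of the TCA cycle (21 measured) averaged 10.10 and 10.20 in nucARRB1 and 10.32 and 10.45 in wtARRB1, with a median of -0.22. None was called at 1% or 5%, and 5 and 6 were lower at an unadjusted p under 0.05 (against 960 of all 18664 genes). Both nucARRB1 arrays were below both wtARRB1 arrays at 9 glycolysis genes (47.4%) and 8 TCA cycle genes (38.1%), against 16.7% of all genes. PDHX, a structural component of pyruvate dehydrogenase, came closest, at 9.47 and 9.56 in nucARRB1 and 9.98 and 10.32 in wtARRB1 (-0.64, SE 0.127, adjusted p = 0.072). SUCLA2, a subunit of succinyl-CoA ligase, gave 9.36 and 9.48 in nucARRB1 and 9.89 and 10.01 in wtARRB1 (-0.53, adjusted p = 0.167), and GPI, glucose-6-phosphate isomerase, gave 10.97 and 11.13 in nucARRB1 and 11.30 and 11.53 in wtARRB1 (-0.37, adjusted p = 0.547). Of 46 measured genes of oxidative phosphorylation none was called, and the median was -0.09. At an unadjusted p under 0.05 there were 7 of them, 1 higher and 6 lower (against 920 and 960 of all 18664 genes). Without wtARRB1 replicate 2 the glycolysis median was -0.10 and that of oxidative phosphorylation turned to 0.01, whereas that of the TCA cycle was -0.17.

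Of 5 mitochondrial enzymes that the study names, FH (fumarate hydratase) had no named probe in the annotation used here and was not analysed. The study reports FH as lowered along with SDHA, and that was not examined for FH. The other 4 were analysed here, with no call at 1% or 5%. At an unadjusted p under 0.05, 1 was lower (against 960 of all 18664 genes), and the median was -0.21 (-0.38 and -0.12 for nucARRB1 replicates 1 and 2). SDHA, a subunit of succinate dehydrogenase, gave 8.93 and 9.40 in nucARRB1 and 9.56 and 9.46 in wtARRB1 (-0.35, 95% confidence interval -0.68 to -0.01, adjusted p = 0.676), but its second, dimmer probe gave 8.15 and 8.88 in nucARRB1 and 8.49 and 8.73 in wtARRB1 and differed by -0.09. PDHA1, a subunit of pyruvate dehydrogenase, gave 8.52 and 8.82 in nucARRB1 and 9.09 and 8.89 in wtARRB1 (-0.32, interval -0.81 to 0.16). On their brightest probes the arrays of both genes did not overlap, whereas those of DLAT (-0.09) and DLD (-0.08), further subunits of pyruvate dehydrogenase, did. IDH1, a cytosolic isocitrate dehydrogenase that the study discusses apart from them, gave 12.32 and 12.45 in nucARRB1 and 12.88 and 12.61 in wtARRB1 (-0.37, interval -0.67 to -0.06, adjusted p = 0.575), and its second probe differed by 0.06 with overlapping arrays. The study described these genes as changed by nuclear ARRB1, with SDHA relative to control cells, and not against wtARRB1. Both ARRB1 lines lay below all controls for SDHA (9.79 to 10.27) and DLAT, and above them for IDH1 (11.46 to 11.88). For PDHA1 both nucARRB1 arrays lay below all controls (9.07 to 10.04), and wtARRB1 was partly inside that range. For DLD both wtARRB1 arrays lay below all controls (9.77 to 10.04), and nucARRB1 was partly inside that range. The study chose these genes with these arrays in view, so their direction is not independent evidence.

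HIF1A is the transcription factor through which cells switch to glycolysis when oxygen is low, and 14 of its targets that the study names from its expression profiling were listed. In nucARRB1 against wtARRB1 none of the 14 was called at 1% or 5%, and their median was 0.02. At an unadjusted p under 0.05, 1 was higher and 1 lower (against 920 and 960 of all 18664 genes). VEGFB, a growth factor of blood vessels, was the most raised, at 10.67 and 9.92 in nucARRB1 and 9.41 and 9.39 in wtARRB1 (0.90, interval 0.39 to 1.41, adjusted p = 0.254), and replicate 1 carried most of it. The other VEGFB probes were dimmer and differed by 0.25, -0.09 and 0.05. ENO3, an enolase, gave 9.09 and 9.13 in nucARRB1 and 9.56 and 9.33 in wtARRB1 (-0.33, adjusted p = 0.561). VEGFA gave 9.0 and 9.49 in nucARRB1 and 9.54 and 8.89 in wtARRB1, with a difference of 0.03 and an interval of -0.45 to 0.50. The mean level of the 14 was 9.93 and 9.83 in nucARRB1, 9.95 and 9.73 in wtARRB1 and 8.88 to 9.50 in the 6 controls. On this mean both ARRB1 lines were above the controls and overlapped each other. Single members varied. VEGFA, ENO3, PGM1, SLC2A12, MXI1, BNIP3L, PPARG and STC2 were above all controls in both lines, VEGFB only in nucARRB1 and LONP1 only in wtARRB1. ALDOA was below all controls in both lines and HK2 only in nucARRB1, and ALDOC and BNIP3 lay within the control range. The median was 0.14 without wtARRB1 replicate 1 and -0.16 without wtARRB1 replicate 2. LDHA, the lactate dehydrogenase subunit that the study names elsewhere as a target, gave 12.54 and 12.66 in nucARRB1 and 12.75 and 13.26 in wtARRB1 (-0.41, interval -0.78 to -0.03, adjusted p = 0.647). Over a wider list of 44 HIF1A targets the median was -0.01 with no call. At an unadjusted p under 0.05, 1 was higher and 5 lower (against 920 and 960 of all 18664 genes). CA12, a carbonic anhydrase of the cell surface, was lower in both nucARRB1 arrays, at 7.08 and 7.67 in nucARRB1 and 8.08 and 8.20 in wtARRB1 (-0.76, adjusted p = 0.0836). As these genes were not called, the intervals and not the p-values bound the difference. They too measure only the spread between these arrays, which may be technical.

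**Figure D5:**
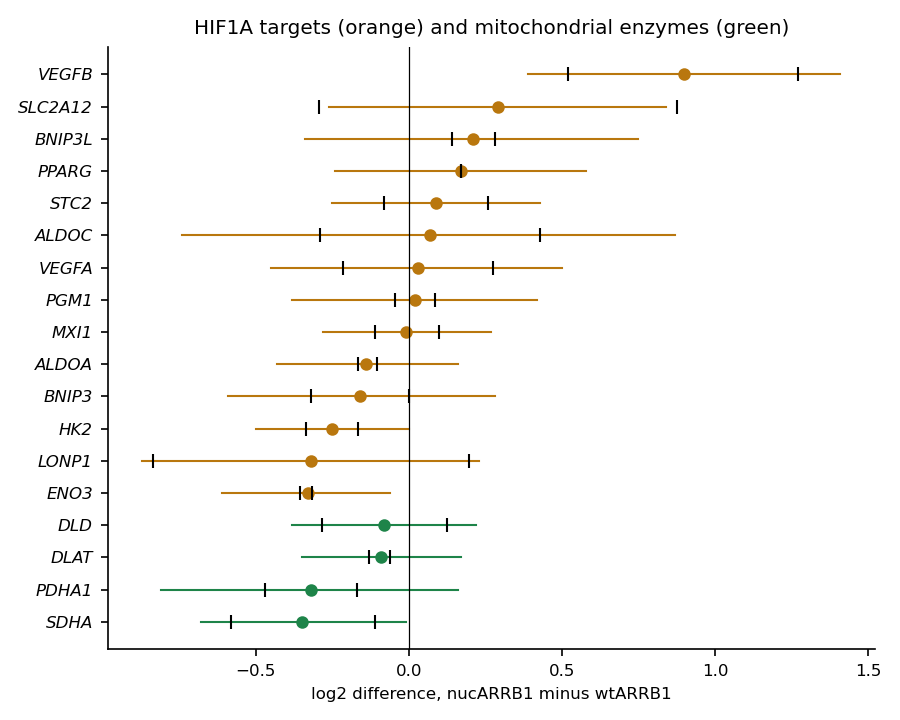
Log2 difference, nucARRB1 minus wtARRB1, of 14 HIF1A targets (orange) and 4 mitochondrial enzymes (green) that the study names; circles are the estimates, lines their 95% confidence intervals, and black ticks each nucARRB1 array minus the wtARRB1 mean. VEGFB at 0.90 stands apart, the other targets lie on both sides of 0, and the estimates of all 4 enzymes lie below 0.

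ATF4 drives genes of amino acid synthesis, import and tRNA charging when amino acids run short or the secretory pathway is stressed. Its 55 measured targets averaged 9.90 and 10.21 in nucARRB1, 10.27 and 10.11 in wtARRB1 and 9.10 to 9.52 in the controls. Both ARRB1 lines thus stood above the controls, and between them the median difference was -0.17 (-0.29 for replicate 1 and -0.05 for replicate 2). The rise of ATF3 was the 1 call at 5% (against 0.123% of all genes higher). PYCR1, which completes proline synthesis, gave 9.38 and 9.93 in nucARRB1 and 10.19 and 10.19 in wtARRB1 (-0.54, adjusted p = 0.363). The other PYCR1 probes, near the array median, differed by 0.29 and 0.07. CHAC1, which degrades glutathione, gave 6.59 and 7.11 in nucARRB1 and 7.19 and 7.40 in wtARRB1 (-0.45, adjusted p = 0.52). SLC7A5, a transporter of large amino acids, gave 10.92 and 11.70 in nucARRB1 and 12.03 and 11.55 in wtARRB1, and these arrays overlapped. ATF3 was thus higher in nucARRB1 while most of the targets listed with it were not.

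Lists of lipid synthesis, protein synthesis and folding held no call at 5%, and their leading members are given as values. ELOVL6, an elongase of fatty acids, gave 7.46 and 7.71 in nucARRB1 and 8.06 and 8.90 in wtARRB1 (-0.89, adjusted p = 0.111), and SQLE, a rate-limiting enzyme of cholesterol synthesis, gave 9.50 and 9.11 in nucARRB1 and 8.82 and 8.57 in wtARRB1 (0.61, adjusted p = 0.193). Of 65 ribosomal protein genes, 18 (27.7%, against 15.5% of all genes) lay above wtARRB1 in both nucARRB1 arrays and 6 (9.23%, against 16.7%) below, with a median of 0.08. RPL34 led them, at 11.80 and 11.80 in nucARRB1 and 11.05 and 11.26 in wtARRB1 (0.64, adjusted p = 0.108). Its second probe differed by 0.22 with overlapping arrays. CALR, the chaperone calreticulin, gave 9.62 and 9.38 in nucARRB1 and 9.93 and 10.06 in wtARRB1 (-0.50, adjusted p = 0.222).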

How the data were processed

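RNA of 10 C4-2 samples was hybridised to Illumina bead arrays. The authors deposited unnormalised log2 values and quantile-normalised log2 values of 48801 probes. Detection p-values were not used here, and the background correction is not given in the sources used here. Quantile normalisation of the unnormalised values here differed from the deposited ones by at most 0.0232. Probes were named through the platform annotation and RefSeq (GRCh38.p14) gene IDs, so that 27576 had 1 gene, 13 had several and 21212 had none; a gene was read by the probe with the highest mean. Means of the 4 groups were fitted to all 10 arrays with limma (version 3.58.1, R 4.3.3; 6 residual and 9.94 prior degrees of freedom), as in the study's methods, and the Benjamini-Hochberg method, taken over all probes, gave adjusted p-values called at 1%. On data simulated for this design the fit was tested before use. An exact permutation test of 2 against 2 arrays cannot go below p = 0.333, two-sided. The number of arrays limits the precision. 52 gene lists held 944 measured genes. The members and lists were chosen with earlier results of these data known. Named genes were ARRB1, up to 12 of the largest rises and falls, the leading members of each list, genes named by the study and the 6 largest differences in each direction between the nucARRB1 arrays. Promoters came from RefSeq (GRCh38.p14) and 106 of 134 named genes had one.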

Additional observations from a re-analysis of the deposited data

How the results depend on the processing

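The number of calls varied with the processing, and the signs of the 12 called genes did not. From 24 probes and 12 genes at 1%, median centring gave 8 probes and 3 genes, the 4 ARRB1 arrays alone 1 probe and 1 gene, the mean of all probes of a gene 2 genes, and a false discovery rate of 5% 63 probes and 34 genes. Leaving out 1 array at a time gave between 9 and 377 probes and between 3 and 244 genes. The extremes came without wtARRB1 replicate 2 (9 probes, 3 genes) and without nucARRB1 replicate 2 (377 probes, 244 genes); without nucARRB1 replicate 1 there were 12 probes and 6 genes, without wtARRB1 replicate 1 19 genes, without GFP replicate 2 15 probes and 7 genes, and without parental replicate 2 12 probes and 5 genes. Where an ARRB1 group was left with 1 array, that array was assumed to vary like the other groups, and the cause of the other changes was not tested. Quantile normalisation here, array weights, an intensity-dependent prior variance and a filter to probes above the median level gave counts within 1.5 times.

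With the replicate number as a replicate block, 16 probes and 8 genes were called, all 8 among the 12. Over all probes, same-numbered nucARRB1 and wtARRB1 arrays did not deviate together (correlation of their deviations 0.00645). Gene lists varied in this. For mitosis the median of replicate 1 minus replicate 2 was -0.98 in nucARRB1 and -0.57 in wtARRB1. For the ATF4 lists it was -0.26 in nucARRB1 and 0.17 in wtARRB1. Whether arrays of the same number shared a batch was not tested. The filter on detection p-values was not run, as none were used here.

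Of 67 genes with a reported difference, 5 uncalled ones changed sign when an array was left out, over ranges of -2.30 to 0.38 for CDC20, -0.28 to 0.12 for DLD, -2.83 to 0.01 for PTTG1, -0.54 to 1.45 for TRPM8 and -0.30 to 0.36 for VEGFA. The median of the mitosis lists ranged from -1.05 to -0.08 and kept its sign, whereas that of the DNA replication lists ranged from -0.50 to 0.09 and that of oxidative phosphorylation from -0.22 to 0.01.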

Other observations

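Many of the genes higher at 5% lay on 1 chromosome, as a count with no test. The X chromosome holds 3.91% of the 18664 genes, and 7 of the 23 higher genes lay on it (CTAG2, CTAG1A, VCX2, SSX2, NLGN4X, PNMA3 and SNORA70), with none of the 11 lower genes. Several belong to families of near-identical copies, and the median difference of the chromosome was 0.04 over its 171 genes of a mean level above 8.

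Among 5030 genes above that level, chromosomes were then set side by side, a choice made after the values were seen. Chromosome 3 had the highest share above: of 291 genes, 80 (27.5%) lay above wtARRB1 in both nucARRB1 arrays and 10 (3.44%) below, against 13.4% and 15.6% over the autosomes and X, and its median was 0.11 in each nucARRB1 array relative to the wtARRB1 mean. Relative to GFP its median was -0.05 in nucARRB1 and -0.15 in wtARRB1. Chromosome 8 had the same sign, with 38 of 181 genes (21%) above and 12 (6.63%) below, and medians of 0.05 and 0.09 in nucARRB1 replicates 1 and 2. Chromosome 13 had the opposite sign, with 6 of 82 genes (7.32%) above and 26 (31.7%) below, and medians of -0.09 and -0.16 in nucARRB1 replicates 1 and 2. LCP1, one of the 3 genes that fell at 1%, and SUCLA2 lie on it, but so do TNFRSF19, higher at 1%, and SHISA2, higher at 5%. Chromosome 21 had a median of 0.11 over 58 genes, 0.15 in replicate 1 and 0.05 in replicate 2, and the median differences of the other chromosomes lay between -0.05 and 0.04. Genes of a chromosome are not independent, and no cause of these shifts was tested.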
